A study of Mus musculus with 12 samples.

Results

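Mammalian cells carry proteins that detect DNA and RNA in the cytosol, and 10 genes of these pathways were examined in mouse embryonic fibroblasts that lack, by their labels, the DNA helicases BLM, RECQL1 or both. The 10 were taken by symbol from the cGAS-STING and RIG-I pathways, and all 10 were among the 24054 genes of the count table. Each of the 10 also passed the filter on low counts that left 14876 genes for testing. The genes were Mb21d1, Ddx58, Ifih1 and Zbp1, which encode sensors, Tmem173 and Mavs, which encode adaptors, Tbk1 and Irf3, which encode a kinase and a transcription factor, and Trex1 and Samhd1, which encode enzymes that keep nucleic acids or their precursors low.

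As background, DNA in the cytosol is bound by cGAS, the product of Mb21d1, which makes a cyclic dinucleotide that activates STING, the product of Tmem173. RNA in the cytosol is bound by RIG-I (Ddx58) and MDA5 (Ifih1), which signal through MAVS on mitochondria. Both routes meet at the kinase TBK1 and the factor IRF3, which turn on type I interferon genes, and interferon in turn raises many of the sensors, while ZBP1 binds left-handed nucleic acids and can start necroptosis. TREX1 degrades cytosolic DNA and SAMHD1 lowers the pool of DNA building blocks.

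The study measured polyadenylated RNA in primary mouse embryonic fibroblasts (MEFs), connective tissue cells grown from embryos, and asked how each knockout changes transcript levels relative to wild type. There were 12 libraries in 4 groups of 3, namely wild type (WT), Blm knockout (KO; Blm -/-), Recql KO (Recql -/-) and double KO (Blm -/- Recql -/-). Every culture received 10% fetal bovine serum at 3% O2 and 5% CO2, and a KAPA stranded mRNA kit was used for library preparation. The sources used here do not give embryo age, strain or the knockout alleles. No label ties the libraries of a group to different embryos or dishes, and p-values therefore cover just the spread among libraries, which may be technical in part. It is not technical alone in the knockout groups, each of which mixes libraries high and low in Y-linked transcripts.

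The targeted transcripts bear on how the labels are read. Levels are given as CPM, counts scaled to the library total. Blm ranged over 18.6 to 21.9 CPM in WT and 14.3 to 16.4 CPM in Recql KO. It was lower where it was targeted, at 3.18 to 5.64 CPM in Blm KO and 3.85 to 6.99 CPM in double KO. Recql transcript was not set apart from WT where the labels name its knockout. It ranged over 25.7 to 29.3 CPM in WT, 21.7 to 29.8 in the libraries labelled Recql KO and 18.7 to 35.6 in those labelled double KO. In Blm KO, which is not labelled for Recql, it held 21.3 to 24.1 CPM, below every WT library. An allele that spares the transcript would not be visible in gene-level counts. "Recql KO" and "double KO" below therefore mean the libraries so labelled, and directions involving them depend on those labels being right. Totals ran from 47758552 to 59296354 expected counts. A count of 0 allows up to 3 counts, equal to 0.0508 to 0.0614 CPM by library, which covers counting error only. No pair of libraries within a group looked like a repeat of 1 library (chi-square of their counts divided by its degrees of freedom, 25.7 to 169).

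Sequence context was examined for the start regions of the genes, because RIG-I and MDA5 are themselves known interferon targets. RefSeq windows of 300 bases on build GRCm38.p6 ran from 250 bases before to 50 after a transcription start. They were examined for 8 of the 10 genes, all but Tmem173 and Zbp1, so the set examined does not cover every gene. The core of the interferon-stimulated response element, GAAANNGAAA on either strand, lay in the windows of 2 of these 8 genes, Ddx58 and Ifih1. It lay in 3.44% of the 32851 windows examined. The gamma-activated site TTCNNNGAA, which reads the same on both strands, lay in the window of Samhd1 alone among these 8 genes, against 8.3% of the windows examined. The letters in capitals below mark these matches, in stretches of 30 bases read 5′ to 3′ along the gene's strand.
Ddx58, chr4:40239804-40239833, minus strand: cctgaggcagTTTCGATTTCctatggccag
Ifih1, chr2:62646206-62646235, minus strand: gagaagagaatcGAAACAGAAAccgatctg
Samhd1, chr2:157135312-157135341, minus strand: acaccaccctTTCGGAGAAacacaagggcg
In Ddx58 the match fell at bases 3 to 12 after the start, on the opposite strand, and in Ifih1 at bases 33 to 42, on the strand of the gene. In Samhd1 it fell at bases -235 to -227, before the start. These are matches of letters, and binding of a factor was not measured.

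The 250 bases before the start are shown for Ddx58 and Ifih1, the pair of RNA sensors whose levels are set side by side below. Neither stretch held a match to either motif.
Ddx58, chr4:40239826-40240075, minus strand: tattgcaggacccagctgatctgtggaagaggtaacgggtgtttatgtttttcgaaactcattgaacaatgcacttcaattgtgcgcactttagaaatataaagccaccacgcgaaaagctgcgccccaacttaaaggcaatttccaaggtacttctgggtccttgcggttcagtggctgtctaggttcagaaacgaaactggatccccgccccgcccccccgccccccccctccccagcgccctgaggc
Ifih1, chr2:62646256-62646505, minus strand: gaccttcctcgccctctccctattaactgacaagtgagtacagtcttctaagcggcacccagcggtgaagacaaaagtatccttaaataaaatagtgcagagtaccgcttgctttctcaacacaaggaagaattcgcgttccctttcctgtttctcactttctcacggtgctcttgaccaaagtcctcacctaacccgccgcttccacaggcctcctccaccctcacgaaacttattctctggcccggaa

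Per kilobase of annotated exon, the genes differed widely in level in WT cells. Samhd1 stood highest at 25 ± 2.53 CPM per kb (SD, n = 3), followed by Ddx58 at 19.5 ± 5.17 and Tmem173 at 17.8 ± 1.64, and neighbours among these overlapped within 1 SD. Tbk1 at 14.6 ± 0.925, Irf3 at 11.4 ± 1.19 and Mavs at 8.54 ± 0.532 came next and were separated by more than 1 SD. Trex1 at 5.45 ± 0.162 and Ifih1 at 4.25 ± 1.34 overlapped. Mb21d1 was low at 1.47 ± 0.203 and Zbp1 was close to the floor at 0.186 ± 0.166 CPM per kb. In Recql KO the order changed, with Ddx58 at 48.5 ± 4.45 and Ifih1 at 17.8 ± 1.04 CPM per kb above Tbk1 at 15 ± 0.656 and Samhd1 at 12.9 ± 1.32. Transcripts for both RNA sensors were thus the most abundant of the 10 per unit of length in that group. Zbp1 remained near the bottom even there, at 3.16 ± 1.68 CPM per kb, and Mb21d1 stood at 2.38 ± 0.141.

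**Figure D1:**
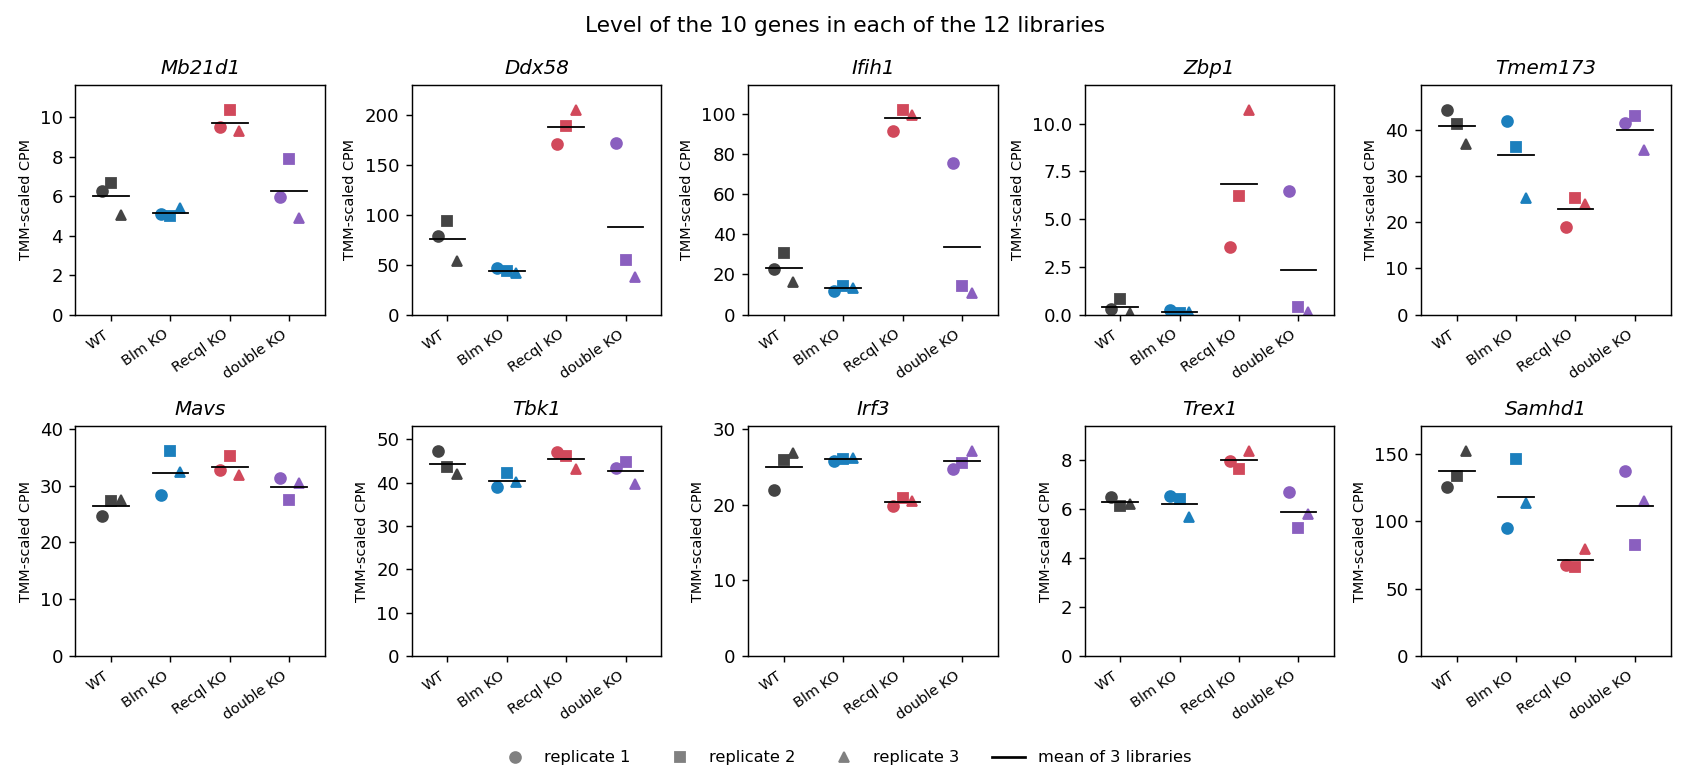
Level of each of the 10 genes in the 12 libraries, in CPM scaled by the trimmed mean of M values (TMM), on a linear axis from 0 that differs between panels. Symbols are replicates and bars are means of 3 libraries. The Recql KO libraries lie apart from WT for every gene except Tbk1. The share of all genes set apart in this way was not computed. Double KO replicate 1 lies far above the other double KO libraries for Ddx58, Ifih1 and Zbp1.

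Between Recql KO and WT, 9 of the 10 genes passed the test, where 29.9% of all tested genes did. The test was edgeR's quasi-likelihood F test with Benjamini-Hochberg adjustment over all 14876 genes, and genes with an adjusted p under 0.05 are called changed. The 4 sensors, Mavs and Trex1 rose (6 genes, against 14.2% of all genes called higher). Tmem173, Samhd1 and Irf3 fell (3 genes, against 15.6% of all genes called lower), and Tbk1 did not pass. The median log2 fold change was 0.34 over the 10 genes and -0.01 over all genes tested. Overlap between groups is stated below gene by gene. The share of all genes whose groups did not overlap was not computed.

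Mb21d1 (chr9:78430526-78443237, minus strand, mm10) encodes cGAS, the DNA sensor. It stood at 6.25, 6.66 and 5.06 CPM in WT replicates 1, 2 and 3, and at 9.49, 10.4 and 9.3 in Recql KO. All 3 Recql KO libraries lay above every other library of the series, since Blm KO held 5.08, 5.01 and 5.4 CPM and double KO held 5.96, 7.87 and 4.88. Mb21d1 rose 1.62-fold in Recql KO (0.70 ± 0.17 on the log2 scale, with the model's standard error, SE; edgeR adjusted p = 0.0119). The call held when any 1 of the 12 libraries was left out (log2 fold change 0.60 to 0.78). It did not pass when only libraries high in Y-linked transcripts were kept (0.66, edgeR adjusted p = 0.159). On the opposite strand a pseudogene, Gm8093, covers 4.87% of its exons.

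Ddx58 (chr4:40203773-40239828, minus strand) encodes RIG-I, which binds RNA with a 5′ triphosphate. Its levels were 79.1, 93.5 and 53.9 CPM in WT and 171, 188 and 205 CPM in Recql KO. The groups did not overlap, but WT libraries differed among themselves by more than those of Recql KO did. Ddx58 rose 2.49-fold (1.32 ± 0.44, edgeR adjusted p = 0.0478). The call was at the threshold. It held only without any 1 of the 3 double KO libraries and was lost without any 1 of the 9 others, with a log2 fold change of at least 1.13 and edgeR adjusted p up to 0.145. With double KO replicate 1 left out, the same difference had an edgeR adjusted p of 0.00163.

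Ifih1 (chr2:62595798-62646255, minus strand) encodes MDA5, which binds long double-stranded RNA. WT libraries held 22.7, 30.8 and 16.2 CPM and Recql KO libraries held 91.2, 102 and 99.5 CPM. The lowest Recql KO library was thus far above the highest WT library. Ifih1 rose 4.20-fold (2.07 ± 0.58, edgeR adjusted p = 0.0264). The call was lost without WT replicate 1 or 3 or any 1 Recql KO library, with values of 1.87 to 2.12 and edgeR adjusted p up to 0.0891. With double KO replicate 1 left out, the value was 2.07 ± 0.20 (edgeR adjusted p = 0.000309).

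Zbp1 (chr2:173206612-173218923, minus strand) encodes the sensor of left-handed nucleic acids. In WT it rested on few reads, with 17, 46 and 5 expected counts in the 3 libraries, which is 0.314, 0.795 and 0.0948 CPM. In Recql KO it had 192, 361 and 524 counts, or 3.56, 6.21 and 10.7 CPM. Every Recql KO library stood above every WT library, and the spread within each group was wide on a log scale. Zbp1 rose 16.8-fold (4.07 ± 1.15, edgeR adjusted p = 0.0312), the highest fold of the 10 genes in this comparison. The 95% interval of the log2 fold change ran from 1.41 to 6.73. The call was lost without WT replicate 1 (3.92) or 3 (3.62) and without Recql KO replicate 2 (4.14) or 3 (3.59), with edgeR adjusted p up to 0.0955. Without WT replicate 2 the value was 5.05. With double KO replicate 1 left out, it was 4.07 ± 0.68 (edgeR adjusted p = 0.0036).

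Tmem173 (chromosome 18, minus strand) encodes STING, the adaptor downstream of cGAS. Its transcript moved opposite to that of the sensor. WT libraries held 44.4, 41.3 and 36.9 CPM, and Recql KO libraries 19.1, 25.3 and 24.1. All 3 Recql KO libraries lay below all 3 WT libraries. Tmem173 fell 1.79-fold (-0.84 ± 0.17, edgeR adjusted p = 0.00567). The call held without each of the 12 libraries in turn (-0.92 to -0.72) and also among libraries high in Y-linked transcripts (-1.10, edgeR adjusted p = 0.025).

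Mavs (chr2:131234063-131248025, plus strand), the mitochondrial adaptor of both RNA sensors, changed little in size. Its 24.5, 27.3 and 27.5 CPM in WT compared with 32.7, 35.2 and 31.8 in Recql KO. The groups did not overlap. Mavs rose 1.26-fold (0.33 ± 0.10, edgeR adjusted p = 0.0271). That call was lost without WT replicate 1 (0.28), Recql KO replicate 1 (0.35) or Recql KO replicate 2 (0.29), with edgeR adjusted p up to 0.0924.

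Tbk1 (chr10:121546455-121586787, minus strand), the kinase shared by both routes, was the most even of the genes, its highest of 12 libraries being 1.22 times its lowest. WT libraries held 47.3, 43.5 and 41.9 CPM and Recql KO libraries 47, 46.1 and 43.2. The groups overlapped. The log2 fold change was 0.04 with a 95% interval of -0.13 to 0.21 (edgeR adjusted p = 0.726).

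Irf3 (chr7:44997648-45002848, plus strand), the transcription factor phosphorylated by TBK1, was slightly lower in Recql KO. Its levels were 22, 26 and 26.9 CPM in WT and 19.8, 20.9 and 20.6 in Recql KO, without overlap. Irf3 fell 1.22-fold (-0.29 ± 0.08, edgeR adjusted p = 0.0246). The call was lost without WT replicate 2 (-0.26) or 3 (-0.23) and without any 1 Recql KO library (-0.30 to -0.26), with edgeR adjusted p up to 0.098. Bcl2l12, a gene on the opposite strand that overlaps 2.56% of the Irf3 exons, was also lower (-0.60, edgeR adjusted p = 0.0119). The strand setting of the counting is not stated, so reads from the shared bases cannot be assigned to 1 of the pair.

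Trex1 (chr9:109057933-109059734, minus strand) encodes the main exonuclease for cytosolic DNA. Its levels were 6.47, 6.12 and 6.18 CPM in WT and 7.93, 7.61 and 8.35 in Recql KO, without overlap. Trex1 rose 1.27-fold (0.35 ± 0.12, edgeR adjusted p = 0.0463). The value is uncertain, since all 1147 of its exonic bases lie within exons of Atrip on the same strand and RSEM has to share reads between the pair. Atrip itself did not pass (0.13, edgeR adjusted p = 0.385). The call held only without double KO replicate 1 or 2. Each of the other 10 libraries, when left out, ended it, with values of 0.32 to 0.39 and edgeR adjusted p up to 0.124.

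Samhd1 (chr2:157097533-157135265, minus strand) encodes a triphosphohydrolase of deoxynucleotides. It had the lowest log2 fold change of the 10 genes. WT libraries held 125, 134 and 153 CPM and Recql KO libraries 67.9, 65.8 and 79.3. All Recql KO libraries lay below all WT libraries. Samhd1 fell 1.93-fold (-0.95 ± 0.19, edgeR adjusted p = 0.00539). The call held without each of the 12 libraries in turn (-1.03 to -0.86) and among libraries high in Y-linked transcripts (-1.02, edgeR adjusted p = 0.0265).

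**Figure D2:**
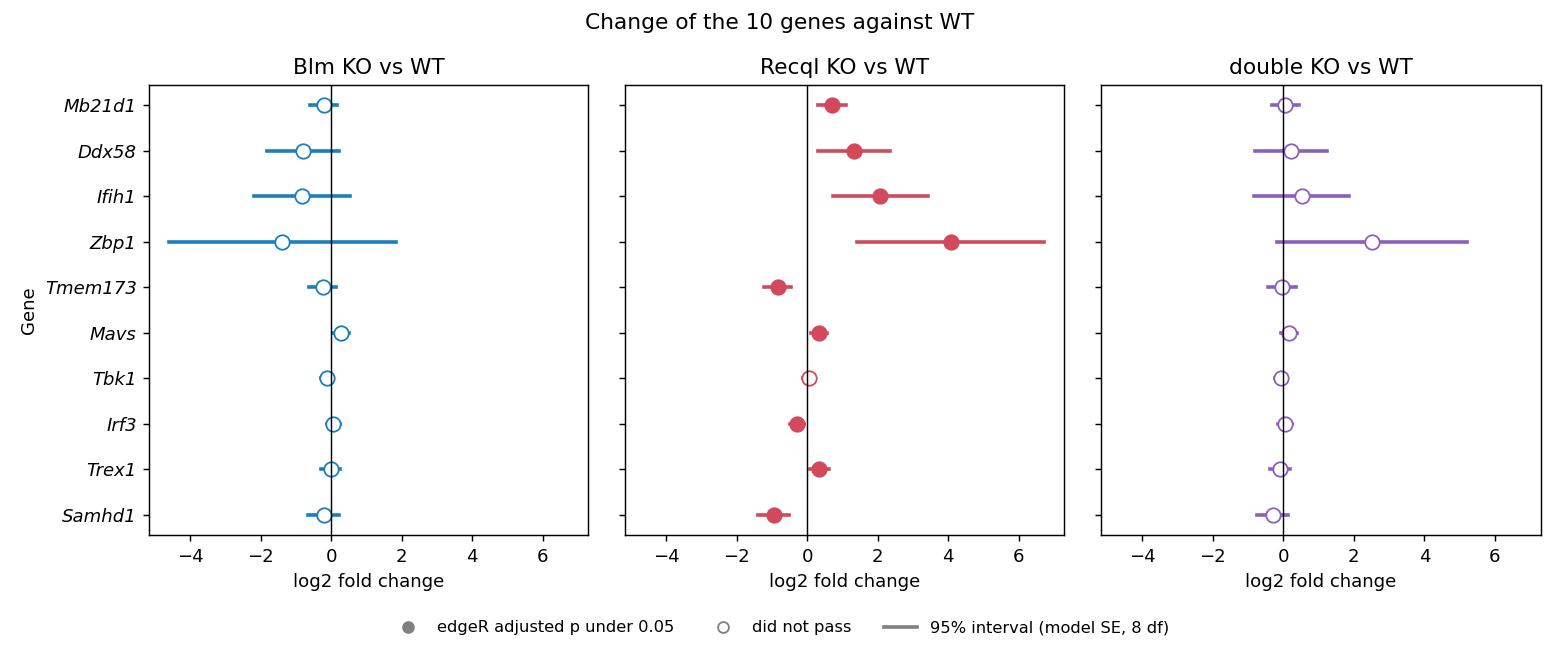
Log2 fold change of the 10 genes in each knockout group against WT, on a common axis, with 95% intervals from the model's standard error. Filled points passed the edgeR test. In Recql KO 9 points are filled, from -0.95 for Samhd1 to 4.07 for Zbp1, and in the other pair of panels none is.

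Y-linked transcripts differed between libraries and moved with the groups. The sum of Ddx3y, Eif2s3y, Kdm5d and Uty was 229 to 257 CPM in all 3 WT libraries, but high in 1 library of each other group only (Blm KO replicate 1 at 247, Recql KO replicate 1 at 283 and double KO replicate 2 at 249). Xist, transcribed from the inactive X chromosome, was at 0.111 to 11.7 CPM in these 6 and at 310 to 473 CPM in the other 6. Of the other 6, Recql KO replicate 2 was intermediate, with a Y-linked sum of 28.7 CPM and Xist at 310 CPM. The rest had sums of 0.676 to 6.25 CPM. Libraries counted as high had sums over 100 CPM and as low under 10 CPM, so Recql KO replicate 2 entered neither fit. With only the 6 high libraries, 3 of the 10 genes passed between Recql KO and WT, where 7.39% of all genes did, namely Ifih1 (1.97, edgeR adjusted p = 0.0315), Tmem173 and Samhd1. Ddx58 (1.18, edgeR adjusted p = 0.0718) and Zbp1 (3.13, edgeR adjusted p = 0.0938) kept their sign and did not pass. In that fit Recql KO is 1 library, assumed to vary like the WT libraries. When the fit held the Y-linked level as covariate, 4 genes passed (23.6% of all genes): Mb21d1, Tmem173, Samhd1 and Irf3. Without the filter on low counts, Ddx58, Ifih1, Zbp1 and Trex1 did not pass (edgeR adjusted p = 0.0889, 0.0571 and 0.0598 for the first 3), and in a fit of WT and Recql KO alone Trex1 and Irf3 did not.

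Between Blm KO and WT, 0 of the 10 genes passed edgeR's adjusted test, where 0.753% of all genes did, and 0 passed with DESeq2, where 6.49% did. At an unadjusted p under 0.05, 1 gene passed in edgeR, against 18.9% of all genes. That gene was Mavs, at 28.4, 36.1 and 32.3 CPM in Blm KO (0.29 ± 0.10, edgeR adjusted p = 0.163). Ddx58 stood at 46.8, 43.2 and 41.4 CPM and Ifih1 at 11.9, 14.5 and 13.1 CPM in Blm KO. All 3 libraries were below all 3 WT libraries for both genes, with log2 fold changes of -0.79 for Ddx58 and -0.82 for Ifih1 (edgeR adjusted p = 0.36 and 0.468). In the fit of all 12 libraries the SE was 0.44 for Ddx58 and 0.59 for Ifih1. The 95% intervals of that fit, -1.81 to 0.23 and -2.18 to 0.54, leave both directions possible. Their width depends on double KO replicate 1, a library outside this comparison, through the shared spread. With it left out, the values were -0.79 ± 0.19 for Ddx58 and -0.82 ± 0.20 for Ifih1. Neither gene passed in that fit (edgeR adjusted p = 0.109 and 0.107). Tmem173 at 41.9, 36.3 and 25.4 CPM and Samhd1 at 95.1, 146 and 114 CPM overlapped WT. Zbp1 stayed at 0.0879 to 0.254 CPM, Trex1 at 5.64 to 6.51, Tbk1 at 38.9 to 42.2 and Irf3 at 25.8 to 26.2.

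Between double KO and WT, 0 of the 10 genes passed with edgeR (0.121% of all genes) or with DESeq2 (2.19%), and 0 passed at an unadjusted edgeR p under 0.05 (10.8%). Group means hide how the 3 double KO libraries differed. Ddx58 stood at 171, 55 and 37.8 CPM, Ifih1 at 75.7, 14.1 and 10.9, and Zbp1 at 6.47, 0.421 and 0.128. Replicate 1 was high for all 3 genes, and replicates 2 and 3 were below the WT mean except for Zbp1 in replicate 2.

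Double KO replicate 1 resembled the Recql KO libraries for some of the 10 genes and not for others. Its Ddx58 was 3.70 times the mean of replicates 2 and 3, its Ifih1 6.07 times and its Zbp1 23.6 times. These levels were 91.2%, 77.5% and 94.7% of the Recql KO means, within the Recql KO range for Ddx58 and Zbp1 and below it for Ifih1. In contrast its Mb21d1 of 5.96 CPM was 61.3% of the Recql KO mean and 0.935 times its fellow replicates. Its Tmem173 of 41.5 CPM, Samhd1 of 137 and Irf3 of 24.8 were all above the Recql KO range. Its Mavs of 31.2 CPM and Trex1 of 6.66 CPM lay between the WT and Recql KO ranges, at 93.9% and 83.6% of the Recql KO means. The Y-linked sum of replicate 1, 3.36 CPM, was close to the 6.25 of replicate 3, which was low for the same sensors.

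Interferon targets in double KO replicate 1 were also mixed. Ifit1 stood at 132 CPM, 38.7 times the mean of the other double KO libraries, Isg15 at 66.8 (27.9 times) and Usp18 at 38.7 (35.3 times). Cxcl10, a chemokine, was at 1.68 CPM or 5.36% of the Recql KO mean, and Rsad2, an antiviral enzyme, at 3.36 CPM or 11.2%. Isg15 by contrast reached 164% of the Recql KO mean.

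**Figure D3:**
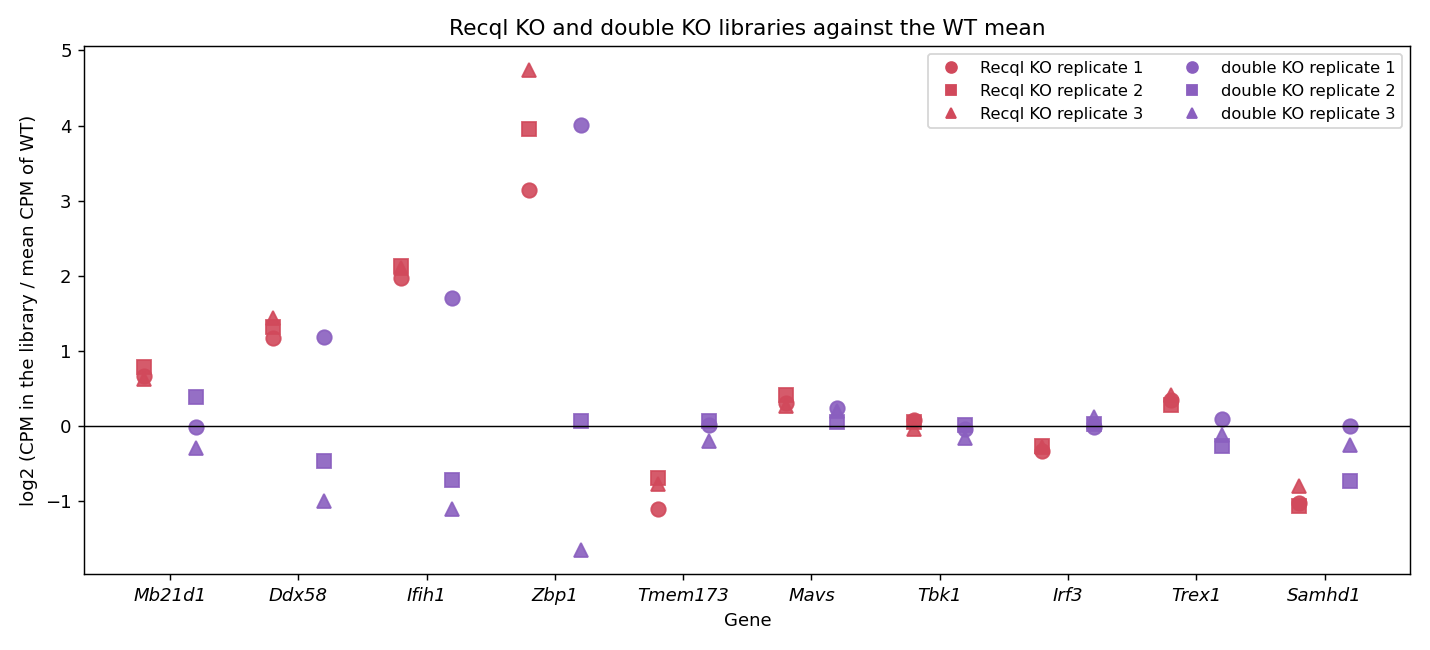
Each Recql KO and double KO library relative to the WT mean, as log2 of the ratio of CPM, for the 10 genes. Double KO replicate 1 (purple circles) sits among or near the Recql KO libraries for Ddx58, Ifih1 and Zbp1, while for Mb21d1, Tmem173, Irf3 and Samhd1 it sits near 0 with the other double KO libraries or WT.

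The double KO and Recql KO groups were then compared, which shares the Recql KO libraries with the comparison of Recql KO and WT, so the 2 sets of values are not independent. Of the 10 genes, 5 passed (24.7% of all genes). Tmem173, Samhd1 and Irf3 were higher in double KO (13.2% of all genes were called higher), and Mb21d1 and Trex1 were lower (11.6%). Tmem173 stood at 41.5, 43.1 and 35.6 CPM in double KO, above all Recql KO libraries (0.81 ± 0.17, edgeR adjusted p = 0.00773), and this call held without each of the 12 libraries. Samhd1 stood at 137, 82.6 and 115 CPM (0.65 ± 0.19, edgeR adjusted p = 0.0309). Irf3 stood at 24.8, 25.6 and 27.2 CPM (0.34 ± 0.08, edgeR adjusted p = 0.0142). Mb21d1 was 1.56-fold lower (-0.64 ± 0.17, edgeR adjusted p = 0.0201). Trex1, at 6.66, 5.2 and 5.77 CPM, was 1.36-fold lower (-0.44 ± 0.12, edgeR adjusted p = 0.0217).

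Leaving out double KO replicate 1 altered some but not all calls of the 10 genes between double KO and Recql KO. Tmem173, Irf3 and Trex1 passed with and without it. Without it, Ddx58 (-2.03, edgeR adjusted p = 0.000775), Ifih1 (-2.97, edgeR adjusted p = 0.000212) and Zbp1 (-4.63, edgeR adjusted p = 0.00746) passed as lower. With all libraries their values were -1.09, -1.54 and -1.55 (edgeR adjusted p = 0.0972, 0.081 and 0.319). Without it Mb21d1 (-0.62, edgeR adjusted p = 0.055) and Samhd1 (0.47, edgeR adjusted p = 0.102) no longer passed, and 20.4% of all genes were called. Samhd1 was also lost without Recql KO replicate 1 (0.62), Recql KO replicate 2 (0.60) or double KO replicate 3 (0.63), and Mb21d1 without Recql KO replicate 2 (-0.60) or double KO replicate 3 (-0.50). Irf3 was lost without Recql KO replicate 1 (0.31) or double KO replicate 3 (0.30). Trex1 was lost without Recql KO replicate 1 (-0.45) or 3 (-0.41) or double KO replicate 2 (-0.36) or 3 (-0.43).

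Between double KO and Blm KO, 0 of the 10 genes passed with edgeR (1.96% of all genes), while 3 had an unadjusted edgeR p under 0.05 (23.3% of all genes). These were Zbp1 (3.90 ± 1.31), Ddx58 (1.01 ± 0.44) and Ifih1 (1.35 ± 0.59), with edgeR adjusted p of 0.129, 0.207 and 0.205. DESeq2 called 1 of the 10, Zbp1 (3.94, DESeq2 adjusted p = 0.0234), where it called 9.37% of all genes. Without double KO replicate 1 the edgeR values were 0.82 for Zbp1, 0.08 for Ddx58 and -0.08 for Ifih1.

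Between Recql KO and Blm KO, 8 of the 10 genes passed (40.2% of all genes). Higher in Recql KO were Zbp1 (5.45 ± 1.30), Ifih1 (2.89 ± 0.58), Ddx58 (4.29-fold), Mb21d1 (0.91 ± 0.17) and Trex1 (0.37 ± 0.12), 5 genes where 19.3% of all genes were called higher. Lower were Samhd1 (-0.74 ± 0.19), Tmem173 (-0.60 ± 0.17) and Irf3 (-0.35 ± 0.08), 3 genes where 20.9% were called lower. The edgeR adjusted p was 0.00225 for Mb21d1, 0.00494 for Ifih1, 0.00522 for Ddx58 and between 0.00769 and 0.0301 for the other 5. Mavs and Tbk1 did not pass. Of the 8 calls, 6 held without each of the 12 libraries. Tmem173 was lost without Blm KO replicate 1, Blm KO replicate 2 or Recql KO replicate 1 (-0.77 to -0.43 over all libraries left out). Trex1 was lost without Blm KO replicate 3 or any 1 Recql KO library (0.31 to 0.41).

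The interaction, which asks whether the change from Recql KO to double KO differs from the change from WT to Blm KO, was called for 1 of the 10 genes (10.4% of all genes). That gene was Tmem173, with a log2 difference of 1.06 ± 0.24 (edgeR adjusted p = 0.0237). Its level fell to 22.8 ± 3.29 CPM (SD, n = 3) in Recql KO from 40.9 ± 3.77 in WT, while Blm KO stood at 34.5 ± 8.39 and double KO at 40 ± 3.95. The call was lost without WT replicate 1 (0.98), WT replicate 2 (1.05) or Recql KO replicate 1 (0.94), with edgeR adjusted p of 0.0515 to 0.0579, and with the Y-linked covariate (1.00, edgeR adjusted p = 0.0623). Without double KO replicate 1, 3 of the 10 were called (9.11% of all genes), Tmem173 (1.03), Ddx58 (-1.24, edgeR adjusted p = 0.0322) and Ifih1 (-2.15, edgeR adjusted p = 0.00663). Samhd1 (0.87, edgeR adjusted p = 0.0653) and Mavs (-0.45, edgeR adjusted p = 0.0613) were just outside the threshold. Samhd1 passed without Blm KO replicate 2 (1.04) or double KO replicate 2 (1.04), Mavs without Blm KO replicate 1 (-0.53) and Irf3 without WT replicate 1 (0.35).

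Over the 4 groups together, 8 of the 10 genes differed (35.9% of all genes), all but Mavs and Tbk1. In the order of group means, Recql KO was highest for Mb21d1, Trex1, Zbp1, Ddx58, Ifih1, Mavs and Tbk1 and lowest for Tmem173, Samhd1 and Irf3. Blm KO, WT and double KO libraries overlapped with their neighbours in that order for Mb21d1, Tmem173, Trex1, Samhd1, Irf3 and Tbk1. Blm KO lay wholly below WT for Ddx58 and Ifih1, and WT wholly below double KO for Mavs (31.2, 27.5 and 30.4 CPM in double KO). Recql KO overlapped double KO for Zbp1 and Ddx58, Blm KO for Mavs and WT for Tbk1.

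Other genes of the same pathways were counted from 6 lists in Recql KO against WT, where 14.2% of all tested genes were called higher and 15.6% lower. Of 9 tested interferon and IRF3 targets, 6 rose and 0 fell, with a median log2 fold change of 3.58. They included Rsad2 (4.99, from 0.946 ± 0.71 to 30.1 ± 12.4 CPM), Oasl1 (3.93), a relative of the oligoadenylate synthetases, and Ifit3 (3.66), an interferon-induced antiviral protein. Of 14 adaptors, ubiquitin ligases and kinases, 6 rose and 0 fell (median 0.49), among them Rnf135 (0.94), the ligase that activates RIG-I, Ikbke (0.86), the kinase closest to TBK1, and Ikbkg (0.81). Of 5 genes of the necroptosis branch downstream of ZBP1, 3 rose and 0 fell (median 0.41): Mlkl, which forms the membrane pore, from 8.96 ± 2.21 to 37.3 ± 2.56 CPM (2.06), Casp8 (0.48) and Ripk1 (0.21).

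Of 11 other nucleic acid sensors, 3 rose and 2 fell (median 1.22). Ifi204, a DNA sensor, went from 20 ± 8.21 to 156 ± 7.6 CPM (2.96), Tlr3 rose by 1.77 and Eif2ak2, the RNA-dependent kinase PKR, by 1.22 on the log2 scale. Of 10 genes that remove or edit self nucleic acids, 2 rose and 2 fell (median 0.03), with Adar (1.33), which edits double-stranded RNA, among those higher and Enpp1 (-1.17), which degrades the cGAS product outside cells, among those lower. Of 10 interferon receptor and transcription factor genes, 2 rose and 2 fell (median 0.21), with Irf7 (3.54) and Stat2 (1.66) higher and Tyk2 (-0.56) lower. The counts of both of these last lists lay near the shares over all genes, 14.2% higher and 15.6% lower. Among the genes named from the 6 lists, edgeR adjusted p ran from 0.00133 for Mlkl to 0.0467 for Ripk1.

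Ifnb1, the gene for interferon beta that IRF3 turns on, was too low for the test. It had 2, 9 and 7 expected counts in the Recql KO libraries, or 0.0371, 0.155 and 0.143 CPM, and 0 in the other 9 libraries. At this depth a count of 0 allows up to 0.0508 to 0.0614 CPM, which is above the level of Recql KO replicate 1.

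**Figure D4:**
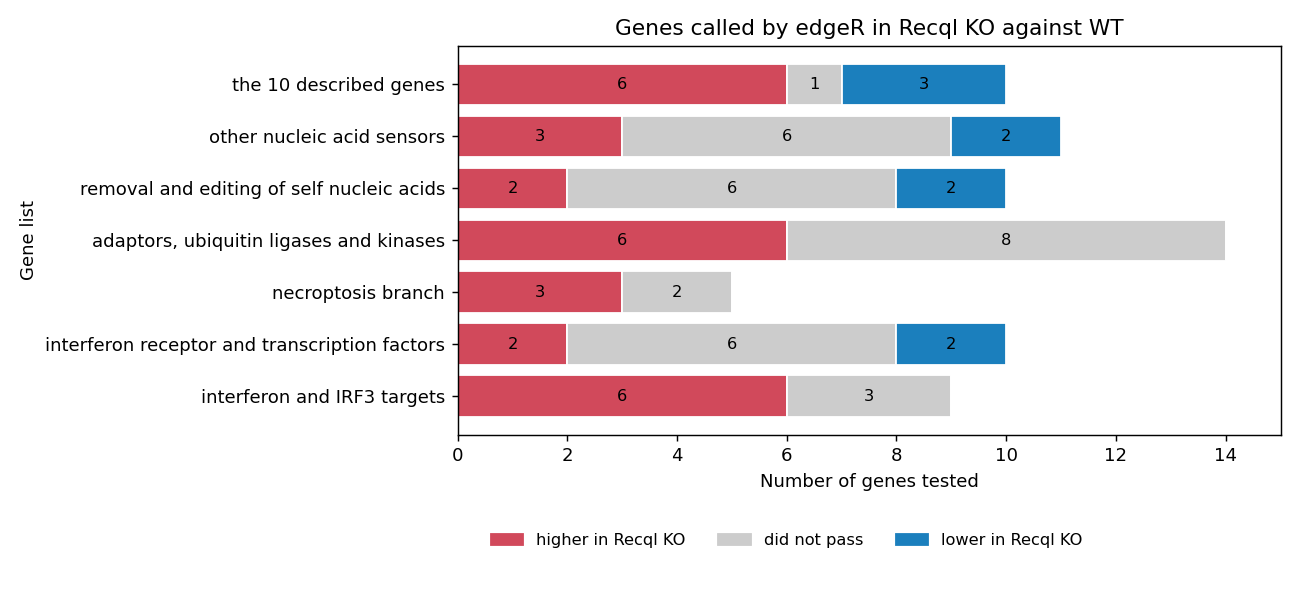
Number of genes called by edgeR in Recql KO against WT in each pathway list, with higher, not passed and lower as stacked bars whose length is the number tested. Higher and lower calls both occur among the 10 described genes (6 and 3), and the list of interferon targets holds 6 higher and 0 lower of 9.

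Between double KO and Recql KO, 5 of 9 interferon targets were lower and 0 higher (median -2.34), where 11.6% of all genes were called lower and 13.2% higher. They were led by Cxcl10 (-4.77), Rsad2 (-4.44) and Ccl5 (-3.62). The adaptor list had 6 of 14 lower and 0 higher (median -0.61), with Ikbke (-1.15), Ikbkg (-0.82) and Tank (-0.78) among them. Of 5 genes of the necroptosis branch, 1 was lower and 0 higher, namely Mlkl (-1.82, edgeR adjusted p = 0.00267). The remaining lists moved little or both ways. Of 11 other nucleic acid sensors, 1 was higher and 1 lower. Of 10 genes that remove or edit self nucleic acids, 1 was higher and 1 lower. Of 10 interferon receptor and transcription factor genes, 1 was lower and 0 higher. Between Recql KO and Blm KO, all 9 tested interferon targets passed as higher in Recql KO, where 19.3% of all genes did.

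Markers of other cell types were detected at low levels in every group. Fibroblast markers were at 0 in none of the 12 libraries and summed to 31732 to 34078 CPM in WT against 21149 to 26027 in Recql KO, with 45398 to 49614 for Blm KO and 40615 to 47742 for double KO. Of these 10, Col1a1, Col1a2 and Col3a1 fell and Dcn rose in Recql KO against WT. Macrophage and blood cell markers summed to 8.34 to 23.5 CPM in WT against 8.76 to 16.1 in Recql KO, a range within that of WT. The sums were 4.92 to 13.8 for Blm KO and 8.64 to 23.4 for double KO. The sum mixes markers that moved in opposite directions. In Recql KO against WT, 3 of the 10 tested had a positive and 7 a negative log2 fold change. Lyz2 averaged 4.51 CPM in WT and 0.576 in Recql KO, while Mpeg1 averaged 1.68 and 3.26. Ptprc, the pan-leukocyte marker, was detected in all 12 libraries at 0.186 to 1.09 CPM, and Tyrobp was at 0 in Recql KO replicates 1 and 2 and in Blm KO replicate 2.

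Within groups, the library with the highest macrophage and blood cell sum was also the one with the highest Ddx58 and Zbp1, in each of the 4 groups. These were WT replicate 2 (sum 23.5 CPM), Blm KO replicate 1 (13.8), Recql KO replicate 3 (16.1) and double KO replicate 1 (23.4). For Ifih1 this was so in WT and double KO but not in Blm KO or Recql KO, where replicate 2 was highest. No remaining gene of the 10 was highest in that library in every group. In Blm KO, Zbp1 rested on 15, 5 and 7 expected counts in replicates 1, 2 and 3. Endothelial markers summed to 3.08 to 4.48 CPM in Recql KO against 12.2 to 20.2 in WT, and epithelial markers to 9.56 to 14.7 against 23.3 to 46.3. The endothelial marker Tie1 was at 0 in 9 of the 12 libraries. Against WT, Recql KO had 3 of 5 tested endothelial and 2 of 6 epithelial markers lower (15.6% of all genes), and of 10 tested macrophage and blood cell markers Cd14 was higher and Cd68 and Lyz2 were lower. The part of these markers in the changes of the 10 genes was not tested, and in bulk samples fewer cells of a type and less RNA per cell cannot be told apart.

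The genes whose pattern was most like that of 3 of the 10 were sought among 12583 genes with at least 1 CPM on average. Likeness was the root mean square difference of log2 CPM over the 12 libraries after centring each gene on its mean. Closest to Ifih1 were Lgals3bp (0.22), Irgm2 (0.26) and Dtx3l (0.27), against a median of 1.28 over all candidates. Lgals3bp, which encodes a secreted glycoprotein, stood at 486 ± 59.6 CPM in Recql KO against 138 ± 56.9 in WT and 81.3 ± 12.9 in Blm KO. Double KO libraries ranged from 56.3 to 411 CPM. Closest to Mb21d1 were Gins3 (0.10), a subunit of the replication complex GINS, Gdf11 (0.11) and Dbr1 (0.11), the enzyme that opens intron lariats, against a median of 0.45. Closest to Tmem173 were Yy2 (0.16), Ap1s3 (0.17) and Zfp57 (0.17), against a median of 0.45. Zfp57 stood at 11.3 ± 0.637 CPM in Recql KO, against 22.7 ± 2.96 in WT, 18.1 ± 3.39 in Blm KO and 24 ± 1.55 in double KO.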

How the data were processed

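The submitters' processing notes name Bowtie2 2.1.0, RSEM 1.2.15 and build mm10. The authors deposited expected counts per gene, RSEM's estimates that need not be whole. For the annotation version and the strand setting, these sources give nothing. All 12 libraries were used. Expected counts were rounded and fitted in R 4.3.3 with edgeR 4.0.16: filterByExpr by group, TMM scaling (factors 0.96 to 1.03), 1 mean per group, and robust quasi-likelihood F tests with Benjamini-Hochberg adjustment over 14876 of 24054 genes (99.99% of counts), called at an adjusted p under 0.05. The 4 groups shared 1 spread, with 8 residual degrees of freedom. The SE is that of the model, and 95% intervals use it. Levels are TMM-scaled CPM, with SD over 3 libraries.

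The 10 genes and the pathway and marker lists were chosen with earlier results of these data known. All 10 genes were tested in every comparison. Named from each pathway list are up to 3 called genes of largest absolute log2 fold change with a mean of at least 1 CPM. Of these, 1 gene is not reported here. Likeness was computed for the 3 genes with the smallest p over the 4 groups. Genes named for double KO replicate 1, Ifnb1, Atrip and Bcl2l12 were chosen after their values were seen.

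Alternatives tried were scaling by relative log expression, no filter, CPM above 1 in 3 libraries, DESeq2 1.42.0, only the groups compared, the replicate number as a block, the Y-linked level as a covariate, only libraries high in Y-linked transcripts, thinning all libraries to the lowest total and omitting each library in turn. Only libraries low in Y-linked transcripts were added after the data were seen. The steps were tested on simulated counts. Positions and exon lengths came from GENCODE on GRCm38 (mm10), matched for 10 of 10 genes, with Mb21d1 listed as Cgas. Start-region sequences are RefSeq's, on GRCm38.p6.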

Additional observations from a re-analysis of the deposited data

Results flagged for a closer look

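For Tmem173, the difference made by the Blm label passed the test for differing between WT and Recql KO backgrounds. The interaction test gave a log2 difference of 1.06 (SE 0.24, edgeR adjusted p = 0.0237, n = 3 libraries per group). Tmem173 stood at 40.9 CPM in WT and 34.5 in Blm KO, but at 22.8 in Recql KO and 40 in double KO. All 3 double KO libraries were above all 3 Recql KO libraries. The call was lost without WT replicate 1 (0.98), WT replicate 2 (1.05) or Recql KO replicate 1 (0.94), with the Y-linked covariate (1.00, edgeR adjusted p = 0.0623) and with only libraries high in Y-linked transcripts (edgeR adjusted p = 0.162). It held in 15 of 20 alternatives.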

How the results depend on the processing

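Shares in parentheses are those of all tested genes called in the same fit. Between Recql KO and WT, 9 of the 10 genes passed (29.9%), against 5 with no filter on low counts (19%), 4 with the Y-linked covariate (23.6%), 3 with only libraries high in Y-linked transcripts (7.39%) and 3 to 9 when 1 library was left out (17.9 to 32.9%). Between double KO and Recql KO, 5 passed (24.7%), against 3 with only the groups compared (21.8%), 1 and 0 with only libraries high or low in Y-linked transcripts (2.44 and 1.32%), and 1 to 6 with 1 library left out (14.3 to 25.7%). Between Recql KO and Blm KO, 8 passed (40.2%), against 3 and 0 with only libraries high or low in Y-linked transcripts (9.2 and 3.9%) and 6 to 8 with 1 left out (27.9 to 43.4%). DESeq2 called 1 gene between double KO and Blm KO (9.37%), where edgeR called 0 (1.96%). For the interaction, edgeR called 1 (10.4%), DESeq2 called 3 (17%), libraries high in Y-linked transcripts gave 0 (0.0328%) and leaving out 1 library gave 0 to 3 (3.64 to 12.2%). Over all 4 groups 8 differed (35.9%), against 1 with libraries high in Y-linked transcripts (3.96%) and 3 to 8 with 1 left out (20 to 39%). Against WT, Blm KO gave 0 with any library left out (0.206 to 3.8%), as did double KO (0.053 to 0.186%). With only libraries high in Y-linked transcripts, each knockout group is 1 library and the spread comes from WT alone, so comparisons between knockout groups set single libraries against each other. With only low libraries, Recql KO is 1 library. Both fits assume that a lone library varies like the other groups. Fits on fewer libraries have fewer residual degrees of freedom, and the cause of the other differences was not tested. No called value changed sign. Of single values under the alternatives, 1332 kept their side of the threshold and direction, 106 no longer passed, 13 newly passed and 39 that were not called changed sign.

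Same-numbered libraries did not deviate together in a way that pairs them: 5 of 18 pairs had a correlation over 0.1 (range -0.17 to 0.23). With the replicate number as a block, 9 genes passed between Recql KO and WT (31.5%) and 5 between double KO and Recql KO (26.2%). In that fit 8 passed between Recql KO and Blm KO (41.4%), 1 for the interaction (10.9%) and 8 over all groups (37.7%). It called 0 between Blm KO and WT (0.807%), double KO and WT (0.336%) and double KO and Blm KO (5.12%). Zbp1, with 5 to 46 counts in WT libraries, has the fewest counts of the 10 genes there and so the widest counting error.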
